A study of Mus musculus with 22 samples.

Results

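The RNA exosome is the multi-subunit machine that degrades and trims RNA from the 3' end, in the nucleus and in the cytoplasm. In mammals its core is a ring of subunits that resemble the phosphorolytic enzyme RNase PH but have lost catalysis, with a cap of S1 and KH domain proteins on top through which RNA is threaded, while cleavage is carried out by the associated nucleases DIS3 and EXOSC10. Inherited loss of function of EXOSC3 and of some other core subunits in humans causes pontocerebellar hypoplasia, a disorder in which the cerebellum and pons fail to develop or degenerate. The genes described here are the 9 whose symbol begins with Exosc among the 24 genes of the RNA degradation list with which the study examined exosome components. They were chosen by name, not by their values, and each is 1 locus of the 66494 in both deposited tables. Exosc1, Exosc2 and Exosc3 encode the cap, Exosc4, Exosc5, Exosc7, Exosc8 and Exosc9 encode ring subunits, and Exosc10 encodes the nuclease. Exosc6, a further ring subunit, was not analysed here.

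The genes were measured by RNA-seq in cerebellar Purkinje cells (PCs) of C57BL/6 mice. Total RNA came from GFP-positive PCs isolated by fluorescence-activated cell sorting, in 5 control (genotype WW, Tsc1+/+) and 5 mutant (genotype CC, Tsc1 fl/fl) libraries. Translating ribosome affinity purification (TRAP) recovered RNA bound to EGFP-tagged ribosomes, in 3 libraries each of control, rapamycin-treated control, mutant and rapamycin-treated mutant animals. Tsc1 restrains the growth kinase complex mTORC1, and rapamycin inhibits that complex. According to the methods, animals of both genotypes carried L7Cre, in which the PC promoter L7 (Pcp2) drives Cre, together with L7GFP for sorting or with Rosa26fsTRAP, which gives tagged ribosomes after Cre recombination. Elsewhere the study describes the sorted controls by L7GFP alone, so that whether these carried Cre is not certain. The labels give neither age, dose nor schedule, and the methods name a pair of postnatal ages for the sorted animals without tying them to libraries. Tsc1 itself was not paired with a locus, and no check of the genotype labels on the deleted gene was possible.

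Depth differed between the assays. The deposited values corresponded to 43.31 to 86.25 M fragments per sorted library and to 2.47 to 6.38 M per TRAP library, and the 10 highest loci took 6.1% to 9.8% of a sorted library against 40.5% to 72.6% of a TRAP library. TRAP depth also differed by genotype. It was 4.9 to 6.38 M in controls and 4.28 to 4.89 M in rapamycin-treated controls. In mutants it was 2.68 to 3.41 M, and 2.47 to 3.37 M with rapamycin. Depth and genotype therefore cannot be told apart in TRAP, and the part of depth in the member values was not tested. TRAP mutant 3 stood apart, with a deposited total of 860843 against at least 3009387 in every other TRAP library. All 13 PC markers paired with a locus were above 0 in at least 1 library of each group. A marker could be read only where the study's supplementary lists name its locus. Apart from the exosome list, these hold genes that the study reported as changed by genotype in these data. Marker sums are therefore no unbiased measure of cell content, here and below. The summed value of the 13 PC markers was 382610 to 700790 in sorted controls and 55136 to 412880 in sorted mutants. The labels of the sorted libraries also carry an MS code, and the mutants 103, 61 and 74 (code MS2723) had the lowest sums, 55136 to 134670, while the mutants 167 and 191 shared code MS3005 with the controls 144a and 176. The controls 144b, 45 and 48 had code MS2872, so that MS3005 was the only code that held both genotypes. Controls 144a and 144b carry the same number and may come from 1 animal. In bulk RNA of this kind, fewer cells of a type and less RNA per cell cannot be told apart.

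The members are scattered over the genome, and several share exonic bases with a neighbour. In the GENCODE M21 annotation of GRCm38, Exosc10 is at chr4:148558429-148582401 on the plus strand, 746 bases from Mtor, which encodes the kinase of the complex that Tsc1 restrains. Exosc10 is also the only member whose deposited locus is matched to a transcript annotated as a target of nonsense-mediated decay. The exons of Exosc9 (chr3:36552606-36565727) overlap those of Ccna2 on the other strand over 510 bases, those of Exosc4 (chr15:76327397-76330677) overlap Oplah over 385 bases, and those of Exosc5 (chr7:25659164-25671368) overlap Tmem91 over 355 bases. Exosc2 (chr2:31670715-31681349) overlaps the antisense gene Gm13427 over 358 bases, and Exosc8 (chr3:54728678-54735393) and Exosc3 (chr4:45316613-45342732) share 89 and 53 exonic bases with Supt20 and Dcaf10. Because the library kit that the labels name does not mark strand, reads from these stretches cannot be assigned to 1 of the partners. Exosc1 (chr19:41922292-41933423), Exosc7 (chr9:123113215-123136129) and Exosc10 have no exonic overlap with another gene.

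The RefSeq promoter set (GRCm38.p6) held entries for 7 of the 9 members, with 2 start sites for Exosc10. Windows of 130 bases, from 100 before the start to 30 after it, are shown for Exosc10, on which most TRAP results turn, for Exosc7 and Exosc8, whose levels correlated with it in the 10 sorted libraries (less so without control 45, as given below), and for Exosc5, which shares a motif with Exosc10. Capitals mark matches, on either strand, to the NRF1 motif GCGCATGC, the ETS motif CCGGAAG, the SP1 motif GGGCGG, the E-box CACGTG or the CCAAT box, and overlapping matches run together. The windows are chr4:148558319-148558448 (plus strand) and chr4:148558613-148558742 (plus) for the first and second Exosc10 starts, chr7:25659053-25659182 (plus) for Exosc5, chr9:123113131-123113260 (plus) for Exosc7 and chr3:54735335-54735464 (minus) for Exosc8.
Exosc10, first start: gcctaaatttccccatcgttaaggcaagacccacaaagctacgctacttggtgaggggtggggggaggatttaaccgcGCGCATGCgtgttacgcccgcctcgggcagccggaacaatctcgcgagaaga
Exosc10, second start: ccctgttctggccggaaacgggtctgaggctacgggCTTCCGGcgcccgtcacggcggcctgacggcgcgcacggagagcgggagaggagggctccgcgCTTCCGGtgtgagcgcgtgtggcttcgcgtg
Exosc5: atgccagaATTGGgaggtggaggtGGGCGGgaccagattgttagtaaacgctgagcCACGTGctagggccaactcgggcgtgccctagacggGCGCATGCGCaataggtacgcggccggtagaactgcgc
Exosc7: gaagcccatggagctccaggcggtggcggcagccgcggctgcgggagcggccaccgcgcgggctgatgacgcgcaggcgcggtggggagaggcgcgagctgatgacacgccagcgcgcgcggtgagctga
Exosc8: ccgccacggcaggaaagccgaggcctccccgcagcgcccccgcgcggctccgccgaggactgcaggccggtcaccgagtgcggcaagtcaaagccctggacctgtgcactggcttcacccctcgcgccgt

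Common promoter motifs were counted as letters only. Over the full 300 bases of each RefSeq entry, the NRF1 motif was in 2 of the 8 member promoters (Exosc5 and the first start of Exosc10) and in 2.712% of all 32851 promoters. The ETS motif was in 2 of 8 (Exosc3 and the second start of Exosc10) against 8.858%, and the SP1 motif was in 6 of 8 against 35.658%. The CCAAT box was in 3 of 8 against 37.408%, the E-box in 1 of 8 (Exosc5) against 7.15%, and the YY1 motif AAGATGGCG in 1 of 8 (Exosc2) against 1.403%. No member promoter held the TATA box TATAAA, which 13.616% of all promoters did. None began with a terminal oligopyrimidine tract, the start that marks many mRNAs whose translation depends on mTORC1, and which 2.505% of all promoters had. Exosc7 and Exosc8 were the most GC-rich at 75.3% and 75.7%, against a median of 52.7% for all promoters, and no motif searched was in their printed windows.

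In sorted PCs the transcripts of all 9 subunits were present in every library, with 463 to 4273 estimated fragments each, and they were ranked by the deposited value per kilobase of the matched transcript. Exosc5 was the highest, with a mean deposited value per kb of 1680.1 ± 296 (SD, n = 10 libraries), and Exosc2 was the lowest at 466 ± 53.8. Between them came Exosc4 at 1285, Exosc10 at 1051, Exosc7 at 995, Exosc1 at 862, Exosc9 at 790.45, Exosc3 at 781 and Exosc8 at 644 per kb. Exosc5 exceeded Exosc4 in 9 of 10 libraries and Exosc8 exceeded Exosc2 in 9 of 10. Exosc10 and Exosc7 were neighbours that did not separate, since Exosc10 was higher in only 6 of 10 libraries, and Exosc9 and Exosc3 differed by less than the SD of either. The order rests on the length of 1 reference transcript per gene. It may also hold reads of neighbours on the other strand, since 355 exonic bases of Exosc5 and 385 of Exosc4 are shared.

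The first comparison asked whether loss of Tsc1 changed the total RNA of the subunits. It did not detectably do so: none of the 9 genes passed the thresholds that the study set (limma p below 0.01 before adjustment, with more than a 2-fold change), and none had an unadjusted p under 0.05. Over all 16455 loci tested, 1.47% passed these thresholds and 11.3% had an unadjusted p under 0.05. The log2 differences, on the log2(value + 1) scale and taken as mutant minus control, ran from -0.26 for Exosc5 to 0.27 for Exosc7. Of the 9, 7 were above 0, against 52.6% of all loci, and the median of the 9 was 0.12 against 0.03 for all loci. The 95% intervals of the 9 genes lay between -0.64 and 0.79, so a doubling or halving of any of them was outside its interval. Control and mutant values overlapped for each of the 9, and over all loci the groups did not overlap in 2.16%.

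**Figure D1:**
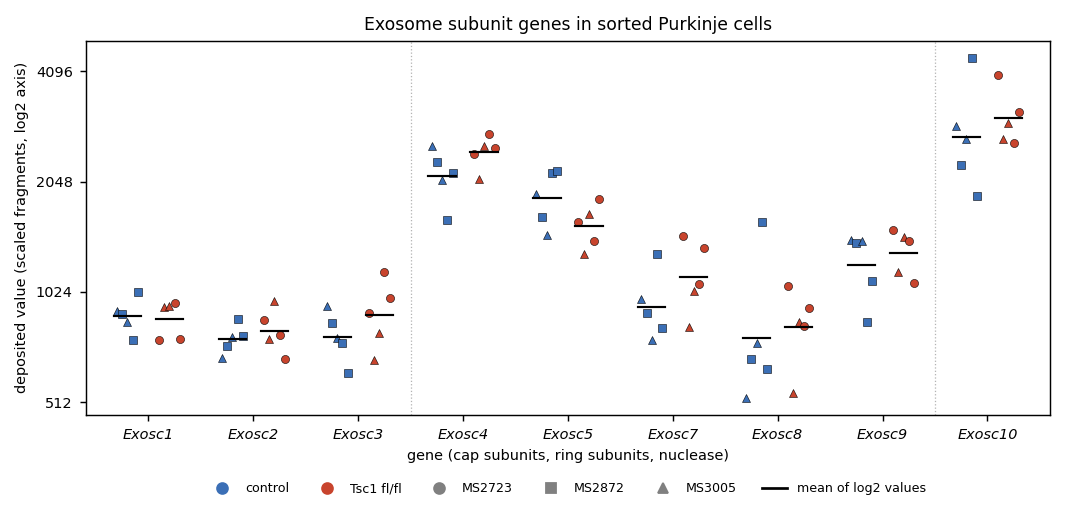
Deposited values (scaled fragments, log2 axis, not divided by length) of the 9 Exosc genes in 5 control and 5 mutant libraries of sorted PCs. Each point is 1 library, its shape gives the MS code, and the bar is the mean of the log2 values. For every gene the control and mutant points overlap. Control 45 stands far above the other controls for Exosc8 and is the highest library for Exosc10.

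The cap genes encode the entry of the RNA channel, and their differences were at most 0.19. Exosc1 was 909, 895, 849, 758 and 1025 in controls 144a, 144b, 176, 45 and 48, and 756, 932, 937, 953 and 764 in mutants 103, 167, 191, 61 and 74. The 2 ranges covered nearly the same span, and the log2 difference was -0.03 ± 0.15 (SE). Exosc2 spanned 675 to 862 among controls and 673 to 969 among mutants, with a log2 difference of 0.08 ± 0.15. Exosc3, the gene of the human cerebellar disorder, was 940.2, 844, 765, 745 and 615 in the controls, in the same order, and 896, 669, 792, 1162 and 987 in the mutants. Its 3 highest mutant values were those of code MS2723, and its log2 difference of 0.19 ± 0.19 became -0.22 within code MS3005.

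The ring genes included the largest differences in both directions. Exosc4 was 2560.1, 2315, 2074, 1607 and 2161 in controls and 2434, 2087, 2557, 2754 and 2534 in mutants, a log2 difference of 0.22 ± 0.16 (limma, Benjamini-Hochberg adjusted p = 0.578). Exosc5, the highest member per kb, was 1893, 1639, 1464, 2161 and 2187 in controls and 1588, 1302, 1666, 1407 and 1830.4 in mutants. Its difference of -0.26 ± 0.17 had the smallest p of the 9 genes (limma adjusted p = 0.539). Exosc7 was 981, 898, 758, 1301 and 817 in controls and 1457, 819.8, 1028, 1075 and 1347 in mutants, a difference of 0.27 ± 0.21. For Exosc4, Exosc5 and Exosc7 alike, the control and mutant ranges overlapped. Exosc8 was 527, 671, 742, 1589 and 632 in controls and 1064, 542, 847, 829 and 927 in mutants, so that control 45 was the highest of all 10 libraries and the other controls lay in the lower part of the range. Its difference was 0.10 ± 0.31 with control 45 and 0.36 without it. Exosc9 spanned 847 to 1417 among controls and 1083 to 1508 among mutants, and its difference of 0.12 ± 0.19 was -0.01 without control 45.

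Exosc10, the nuclease gene, was 2905, 2269, 2679.7, 4455 and 1869 in controls 144a, 144b, 176, 45 and 48. It was 3997, 2681, 2965, 2614 and 3168 in mutants 103, 167, 191, 61 and 74. The highest value of all 10 libraries was a control, and the log2 difference was 0.17 ± 0.24 (limma adjusted p = 0.759). The summed PC markers, given above, were lowest in the 3 mutants of code MS2723, and their part in the sorted comparison was not tested. The 3 astroglial markers paired with a locus, of 7 sought, summed to 116380 to 286340 in controls and 216540 to 342710 in mutants. Within code MS3005 (2 libraries of each genotype) 6 of the 9 differences were above 0 and their median was 0.02, with none past the thresholds and the smallest limma adjusted p at 1.0.

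Although the genotypes overlapped, the subunits did not vary as 1 unit between libraries. With the mean of each genotype removed, 19 of the 36 pairs of members had a Pearson r above 0 over the 10 sorted libraries, and the mean r was 0.03, against 0.002 over pairs of all loci. The count and the mean include control 45, which moved single coefficients as given below, and were not taken without it. The points share libraries, depth and MS codes, so these coefficients are descriptions. With all 10 libraries Exosc7, Exosc8 and Exosc10 had the 3 highest coefficients, with r of 0.78 for Exosc7 and Exosc10, 0.78 for Exosc7 and Exosc8 and 0.77 for Exosc8 and Exosc10. Exosc1 ran against them, with r of -0.85 to Exosc10, -0.77 to Exosc7 and -0.72 to Exosc8. Control 45 was the highest of the 10 libraries for Exosc8 and Exosc10 and the lowest for Exosc4 and Exosc9. Without it these coefficients were 0.62, 0.63 and 0.39 and were no longer the highest. Exosc3 with Exosc4 then came first, at 0.83 against 0.59 before, Exosc4 with Exosc7 went from -0.15 to 0.59, and Exosc1 with Exosc10 was -0.80.

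**Figure D2:**
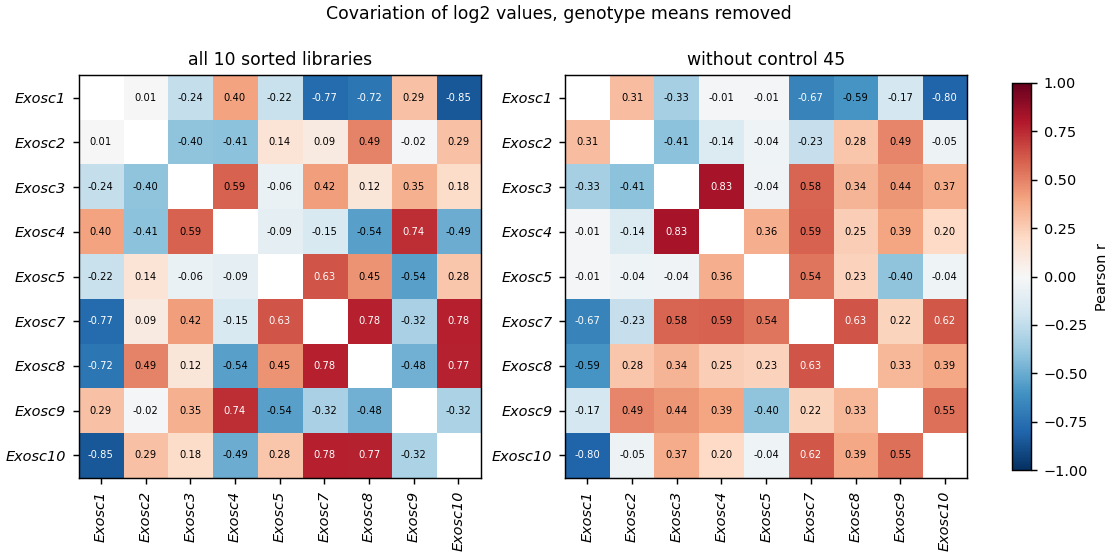
Pearson r between members over sorted libraries after the mean of each genotype was removed from the log2 values, with all 10 libraries (left) and without control 45 (right). Red is positive and blue negative; Exosc7 with Exosc10 goes from 0.78 to 0.62, Exosc1 with Exosc10 from -0.85 to -0.80, and Exosc4 with Exosc10 from -0.49 to 0.20.

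Among the 3 named loci outside the exosome list whose log2 values most resembled the mean of the 9 members were Ip6k2 (r = 0.919) and Pcgf1 (r = 0.908), over 10 sorted libraries and 1337 named loci. Ip6k2 encodes an inositol hexakisphosphate kinase and Pcgf1 a Polycomb ring finger protein. The named loci are those the study listed, mostly as changed by genotype in these same data, so that other loci with as high an r could not be named. Genotype means were not removed for these r. They are the highest of 1337 loci over only 10 libraries, so a high r can come from the ranking itself.

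In TRAP the same 9 genes were measured with far fewer reads. The 108 values of the 9 genes in 12 libraries were all whole multiples of the value of 1 fragment (within 0.02 of a fragment), and they stood for 0 to 54 fragments, with a median of 5. A value listed at 0 allowed up to 3 fragments, and these limits and the intervals in the plot of TRAP values cover counting error only. In control libraries 2 of 27 member values were listed at 0, in mutants 1 of 27, in rapamycin-treated mutants 4 of 27 and in rapamycin-treated controls 14 of 27. Rapamycin-treated controls also had the fewest loci above 0 of the 4 TRAP groups, 7971 to 10388 per library against 11686 to 14479 in controls, and the part of this in the member values was not tested.

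**Figure D3:**
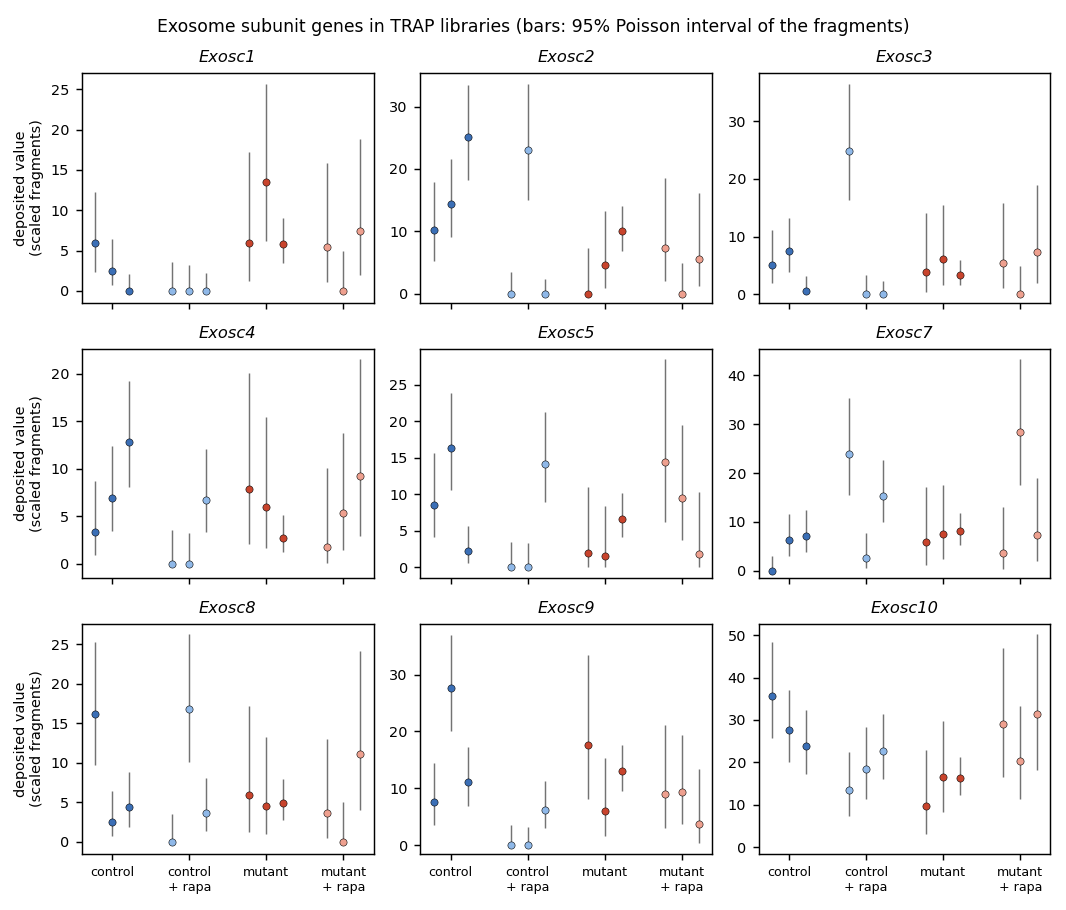
Deposited TRAP values (scaled fragments, linear axes that differ between panels) of each Exosc gene in 3 libraries of each group. Bars are 95% Poisson intervals of the fragments behind each value and cover counting error only; Exosc10 is the member with the most fragments in every group, with controls at 23.9 to 35.7, mutants at 9.81 to 16.6, rapamycin-treated controls at 13.4 to 22.8 and rapamycin-treated mutants at 20.2 to 31.4.

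The second comparison set the level of each transcript within ribosome-bound RNA in mutant against control PCs, not the share of the transcript that was bound. None of the 9 genes passed the thresholds (1.96% of 9658 loci did), and 2 had an unadjusted limma p under 0.05 (8.11% of loci did), the nuclease gene Exosc10 and the cap gene Exosc2, both with the mutant values below the control values. Of the 9 differences, 3 were above 0, against 54.6% of all loci, and their median was -0.24 against 0.07 for all loci. The control and mutant libraries did not overlap for 2 of 9 genes, against 15.4% of all loci, a share not far from the background. Of the 9, Exosc1, Exosc2, Exosc5 and Exosc7 were under the filter (a mean log2 value of 2) in 1 of the groups and passed it through the group where they were higher.

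Exosc10 had TRAP values of 35.7, 27.6 and 23.9 in controls 1, 2 and 3, which stood for 42, 44 and 43 fragments. It had 9.81, 16.6 and 16.4 in mutants 1, 2 and 3, from 5, 11 and 54 fragments. All 3 mutants lay below all 3 controls, and the log2 difference was -0.996 ± 0.373 (SE; limma adjusted p = 0.589). Scaling the libraries to equal totals, which raises the values of TRAP mutant 3, gave -0.60 (limma adjusted p = 1.0) while it moved the median of all loci from 0.07 to 0.47, and leaving out TRAP mutant 3 gave -1.11 (limma adjusted p = 0.873). With equal totals limma gave Exosc1, Exosc2, Exosc9 and Exosc10 the same SE of 1.107. The p-value of that fit therefore does not measure the spread of Exosc10 itself.

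Exosc2 had TRAP values of 10.2, 14.4 and 25.1 in controls and of 0, 4.52 and 10.01 in mutants, from 12, 23 and 45 fragments and from 0, 3 and 33 fragments. The highest mutant was just below the lowest control, and the difference was -2.07 ± 0.87 (limma adjusted p = 0.615), for a gene that passed the filter only through the controls (mean log2 of 4.05 against 1.98). Exosc1, also of the cap, ran the other way, with 5.96, 2.51 and 0 in controls against 5.89, 13.6 and 5.77 in mutants. The groups overlapped, at a difference of 1.60 ± 0.74 (limma adjusted p = 0.638). Exosc3 rested on few fragments in both groups, at 0.557 to 7.53 in controls (1 to 12 fragments) and 3.34 to 6.02 in mutants (2 to 11 fragments), with a difference of 0.30 ± 0.66.

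The ring genes did not separate by genotype in TRAP. Exosc4 was 3.40, 6.90 and 12.8 in controls and 7.85, 6.02 and 2.73 in mutants, a log2 difference of -0.35 ± 0.55. Exosc5 was 8.51, 16.3 and 2.23 in controls and 1.96, 1.51 and 6.68 in mutants, and its difference of -1.07 ± 0.72 was the largest of the ring. Exosc7 was 0, 6.27 and 7.24 in controls and 5.89, 7.53 and 8.19 in mutants, a difference of 1.06 ± 0.80. Mutants therefore had lower means for Exosc5 and higher means for Exosc7, with overlapping libraries in both. Exosc8 ranged from 2.51 to 16.2 in controls and 4.52 to 5.89 in mutants, and Exosc9 from 7.66 to 27.6 and 6.02 to 17.7, with differences of -0.19 ± 0.60 and -0.24 ± 0.58. The 95% intervals of the ring genes reached from -2.77 to 2.95, so that changes of several-fold in either direction were within the error. The summed astroglial markers were 60.7 to 162 in TRAP controls and 358 to 488 in TRAP mutants, and the summed PC markers were 12153 to 14129 and 10440.0 to 11677. The part of these in the member values was not tested.

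**Figure D4:**
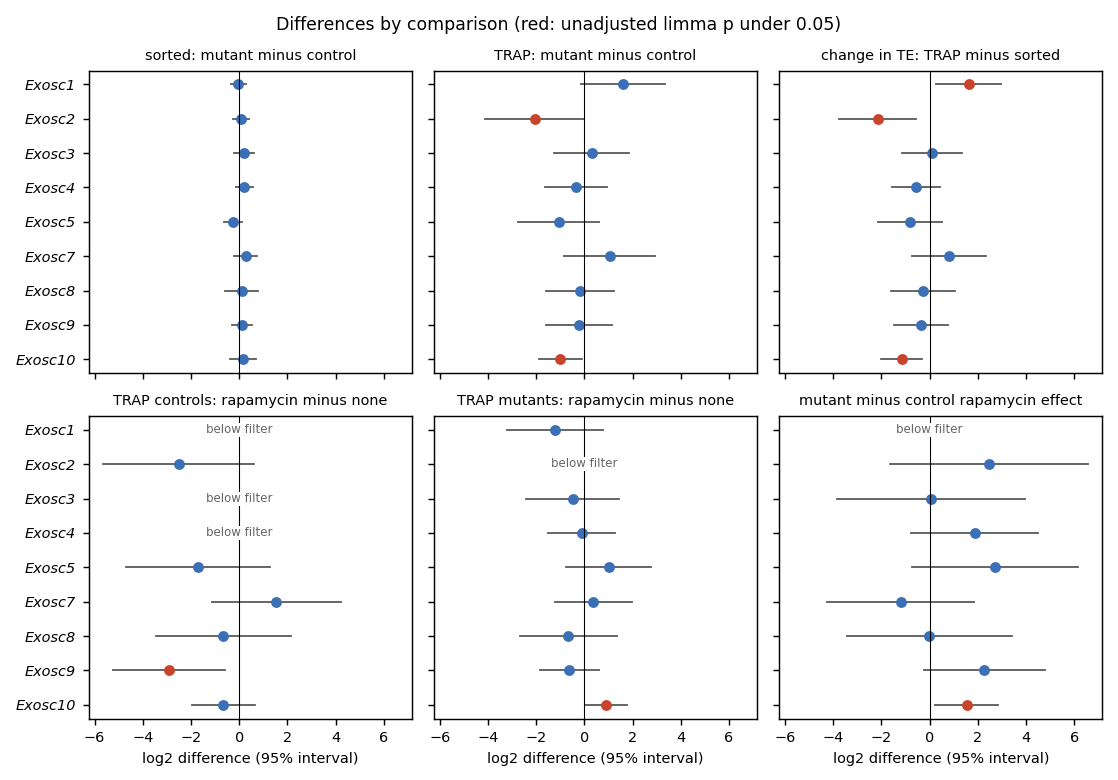
Log2 differences of the 9 Exosc genes with 95% intervals in 6 comparisons, on the log2(value + 1) scale. Red points have an unadjusted limma p under 0.05, "below filter" marks genes too low to be tested, and no point passed the thresholds; the intervals of sorted PCs (top left) lie within -0.64 to 0.79, those of TRAP are several times wider.

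Translation efficiency (TE) compares ribosome-bound with total RNA, and its change with genotype was tested as the interaction of genotype and assay in 1 limma fit. None of the 9 members passed the thresholds (4.38% of 9374 loci did). Of the 9, 3 had an unadjusted p under 0.05, against 14.5% of all loci, and 3 of 9 were above 0, against 60.4%. Exosc10 had a change in TE of -1.16 ± 0.40 (limma adjusted p = 0.221), Exosc2 of -2.15 ± 0.75 (adjusted p = 0.226) and Exosc1 of 1.63 ± 0.63 (adjusted p = 0.259). The other 6 ran from -0.82 for Exosc5 to 0.79 for Exosc7, and the median of the 9 was -0.35 against 0.19 for all loci. These values rest on the same TRAP libraries as the TRAP comparison and are no second observation of it. The fit gives both assays 1 spread, although the SD within groups on the log2 scale was 0.13 to 0.20 for Exosc2 in sorted PCs and 0.61 to 1.78 in TRAP. The number of members past the thresholds was 2 (Exosc2 and Exosc10) with quantile normalization, 1 (Exosc10) without sorted control 45, 1 (Exosc2) without TRAP mutant 3, 2 (Exosc1 and Exosc2) without TRAP control 1 and 2 (Exosc5 and Exosc10) without TRAP control 3.

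The rapamycin libraries asked whether mTORC1 inhibition moved the ribosome-bound transcripts in each genotype. In controls, 6 of the 9 members were high enough to be tested and Exosc1, Exosc3 and Exosc4 were not. None passed the thresholds (1.05% of 8682 loci did), and 1 of 6 had an unadjusted p under 0.05, against 5.3% of loci. That was the ring gene Exosc9, with 7.66, 27.6 and 11.1 in controls and 0, 0 and 6.15 with rapamycin, a log2 difference of -2.91 ± 0.97 (limma adjusted p = 0.85). Exosc9 passed the filter only through the untreated controls, with a mean log2 value of 3.85 against 0.95, as did Exosc2 and Exosc5, while Exosc7 passed through the treated ones. With all 4 TRAP groups in 1 limma fit, Exosc9 passed the thresholds (adjusted p = 0.231). Exosc9 also passed without rapamycin-treated control 3 (-3.85), and Exosc2 passed without rapamycin-treated control 2 (-4.05). The median of all loci in this comparison was itself -0.31. The other ring genes tested, Exosc5, Exosc7 and Exosc8, differed by -1.71 ± 1.25, 1.55 ± 1.12 and -0.66 ± 1.18. Exosc2, at 0, 23.0 and 0 with rapamycin, and Exosc7, at 23.9, 2.65 and 15.4, show how far libraries of this group differed. The libraries did not overlap for Exosc9 and Exosc10, 2 of 6 members, against 11.8% of all loci.

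In mutants, 8 of the 9 members were tested (Exosc2 was too low). Exosc1, Exosc3 and Exosc8 passed the filter only through the untreated mutants, and Exosc5 only through the treated ones. None of the 8 passed the thresholds (1.75% of 9664 loci did), and 1 of 8 had an unadjusted p under 0.05 (8.31% of loci did), Exosc10. Its values were 28.9, 20.2 and 31.4 with rapamycin, from 16, 15 and 17 fragments, all above the 9.81, 16.6 and 16.4 without. The log2 difference was 0.88 ± 0.37 (limma adjusted p = 0.598), and equal library totals gave 0.11 (limma adjusted p = 0.973) while the median of all loci went from -0.04 to -0.81. With equal totals limma again gave Exosc1, Exosc2, Exosc9 and Exosc10 1 common SE, of 1.084, so that p-value does not measure the spread of Exosc10 itself. Exosc10 was the 1 of 8 members whose libraries did not overlap, against 16.8% of all loci. The cap genes Exosc1 and Exosc3 differed by -1.22 ± 0.84 and -0.49 ± 0.81. The ring genes ran from -0.67 ± 0.85 for Exosc8 and -0.63 ± 0.52 for Exosc9, through -0.11 ± 0.58 for Exosc4 and 0.36 ± 0.67 for Exosc7, to 1.004 ± 0.741 for Exosc5. The summed astroglial markers were 54.3 to 155 in rapamycin-treated mutants against 358 to 488 without rapamycin, and the summed PC markers were 10835 to 11831 against 10440.0 to 11677. In controls the PC markers summed to 9633 to 10827 with rapamycin against 12153 to 14129 without, and the astroglial markers to 49.5 to 117 against 60.7 to 162. The part of these in the member values was not tested.

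In controls Exosc10 had 35.7, 27.6 and 23.9 without rapamycin and 13.4, 18.6 and 22.8 with it. All 3 treated controls lay below all 3 untreated ones, but the log2 difference of -0.66 ± 0.55 did not pass (limma adjusted p = 0.867). The difference between the genotypes' rapamycin effects for Exosc10 was 1.54 ± 0.60 (limma interaction, adjusted p = 0.754). Across the members, 8 were tested for this interaction (Exosc1 was too low), none passed the thresholds (1.91% of 9174 loci did) and Exosc10 was the only one with an unadjusted p under 0.05 (6.02% of loci). The cap genes Exosc2 and Exosc3 had interactions of 2.46 ± 1.86 and 0.06 ± 1.77, and the ring genes ran from -1.19 ± 1.39 for Exosc7 and -0.01 ± 1.56 for Exosc8 to 1.87 ± 1.195 for Exosc4, 2.27 ± 1.15 for Exosc9 and 2.71 ± 1.56 for Exosc5. These comparisons share their untreated libraries with the TRAP genotype comparison. The low values of untreated mutants 1, 2 and 3 enter the mutant rapamycin comparison and the interaction, and the untreated controls enter the control rapamycin comparison and the interaction. With equal library totals the interaction of Exosc10 was 0.73 (limma adjusted p = 0.999) and the median of all loci went from 0.33 to -0.45, and with no filter on low values it passed the thresholds at 1.54.

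Under rapamycin, mutant and control PCs were compared directly for the 4 members whose mean passed the filter, Exosc5, Exosc7, Exosc8 and Exosc10. Exosc5 passed only through the treated mutants, with a mean log2 value of 1.31 in treated controls. Exosc8 passed only through the treated controls, with 1.93 in treated mutants. None of the 4 passed the thresholds (1.23% of 8728 loci did) and none had an unadjusted limma p under 0.05 (5.5% of loci did). Exosc10 differed by 0.54 ± 0.53, with an interval of -0.73 to 1.81, Exosc5 by 1.64 ± 1.27, Exosc7 by -0.13 ± 1.02 and Exosc8 by -0.19 ± 1.33. Exosc1 was listed at 0 in all 3 rapamycin-treated controls and had 5.43, 0 and 7.38 in rapamycin-treated mutants, which stood for 3, 0 and 4 fragments.

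The other 15 genes of the same list are largely cofactors and nucleases that act with the exosome, among them the nuclease Dis3, the cytoplasmic Ski complex helicase Skiv2l with Ttc37 and Wdr61, and the nuclear helicase Skiv2l2. The gene listed as Mpp6 is annotated under the symbol of a membrane palmitoylated protein, and Mphosph6, the exosome cofactor of a like name, is listed as well. In sorted PCs 13 of the 15 differences were above 0, against 52.6% of all loci, and none passed the thresholds (1.47% of loci did). Their median was 0.17 against 0.03 for all loci. The limits given above for the MS codes hold for this count too. In TRAP 7 were above 0, against 54.6% of all loci, and 8 below, and none passed (1.96% of loci did). The median there was -0.12 against 0.07 for all loci. None of the 15 passed in the change in TE, in either rapamycin comparison, under rapamycin or in the interaction. The shares of all loci for these are given above.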

How the data were processed

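RNA-seq of 10 sorted and 12 TRAP libraries of mouse PCs was used. According to the methods and the submitters' processing notes, paired-end reads were trimmed with Trimmomatic 0.39, mapped to GRCm38 with STAR 2.7.0f and quantified with Cufflinks 2.2.1 on a transcriptome assembled from the sorted libraries. The authors deposited, separately for each assay, a signal per locus, an estimated fragment count divided by 1 size factor per library. Between 83.5% and 95.7% of the low values of a library were whole multiples of 1 step, which was taken as 1 fragment to express depth; since not nearly all were, no count test was run. Gene names came from the study's supplementary lists. Apart from the exosome list, these hold genes reported as changed by genotype in total RNA, TRAP or TE, which limits the marker sums and the named loci.

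Here log2(value + 1) was computed, loci were kept where the mean was 5 or more in the sorted table, or 2 or more in the TRAP table, and limma 3.58.1 (lmFit, eBayes; R 4.3.3) compared groups with Benjamini-Hochberg adjustment over all loci tested. The study's thresholds defined a call: limma p below 0.01 before adjustment, with more than a 2-fold change. Only the groups compared entered a fit, interactions aside, and fold changes on this scale understate changes of low values. Replicates are the labels' separate samples, and p-values measure the spread between them. With equal library totals, the TRAP genotype and mutant rapamycin fits used a spread common to the members shown instead. Each member tested in a comparison is named there or summarised with other members. Likeness was ranked by Pearson r over the sorted libraries, and 1 of the 3 genes so chosen is not reported here. The code was tested on simulated data. Results were recomputed with other scalings, with a pseudocount of 10 or 0.1, without the filter, with the MS code, 144a and 144b averaged, 1 fit of all TRAP groups, a replicate block and each library left out. The genes, lists and comparisons were chosen with earlier results of these data known. Marker lists for granule cells and oligodendrocytes had no gene paired with a locus. Markers of microglia (2 of 5) and vascular cells (1 of 4) gave sums of 0 to 46.8 and 0 to 7.53 in TRAP. Protein sequences were not used here. Figures were drawn with matplotlib 3.10.9.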

Additional observations from a re-analysis of the deposited data

Results flagged for a closer look

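Exosc8 in sorted control 45 was far from the other controls, at 1589 against 526.8 to 742.2, a gap of 0.797 of the whole range of the group. The rule flagged gaps above 0.71 of the range and was applied to values before the log2 step. On the log2 scale, control 45 was at 10.6 against 9.04 to 9.54. There the gap is a smaller part of the range and falls below this limit. This was the 1 group flagged of 18 tested (9 genes in 2 sorted groups), and chance flags about 1 in 20 groups. The same library was the highest of 10 for Exosc10 and the lowest for Exosc4 and Exosc9.

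Exosc10 in TRAP lay on opposite sides with rapamycin in the genotypes, although it passed the thresholds in neither: all 3 treated controls (13.4 to 22.8) lay below the untreated controls (23.9 to 35.7), and all 3 treated mutants (20.2 to 31.4) lay above the untreated mutants (9.81 to 16.6). The groups did not overlap for 11.8% of all loci in controls and for 16.8% in mutants. The log2 differences were -0.66 (limma adjusted p = 0.867) in controls and 0.88 (limma adjusted p = 0.598) in mutants, and 0.11 in mutants with equal library totals. The difference between the effects was 1.54 on the log2 scale (limma interaction, Benjamini-Hochberg adjusted p = 0.754; unadjusted p under 0.05), and 0.73 with equal library totals (limma adjusted p = 0.999).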

How the results depend on the processing

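Of 846 member differences recomputed under an alternative, 780 kept their direction and their side of the thresholds, 51 changed sign and 15 came past the thresholds. The members past the thresholds stayed at 0 in all but 11 of 112 recounts. In sorted PCs, Exosc1 was 0.02 with equal library totals and 0.09 with the MS code as a term or within MS3005, where Exosc3 was -0.22 and Exosc9 -0.13; leaving out each library gave -0.09 to 0.02 for Exosc1, -0.03 to 0.36 for Exosc8 and -0.01 to 0.18 for Exosc9. For the TRAP genotype, equal library totals gave a median of 0.16, Exosc8 0.21 and Exosc9 0.16. Leaving out each library gave a median of -0.60 to -0.12, Exosc3 -0.44 to 0.79, Exosc4 -0.77 to 0.06, Exosc8 -0.68 to 0.47 and Exosc9 -0.60 to 0.26.

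For rapamycin in controls, the median was -2.68 with a pseudocount of 0.1, and 1 member passed with all 4 TRAP groups in 1 fit. Leaving out each library gave 0 to 1 members past the thresholds, Exosc2 at -4.05 to -1.75, Exosc8 at -1.67 to 0.40 and Exosc9 at -3.85 to -2.43. For rapamycin in mutants, the median was 0.12 with quantile normalization and -0.86 with equal totals, where Exosc7 was -0.38. Leaving out each library gave a median of -0.50 to 0.30, Exosc3 -0.88 to 0.47, Exosc4 -0.54 to 0.40, Exosc7 -0.39 to 0.94 and Exosc8 -1.5 to 0.30. Under rapamycin, the median of the genotype difference was -0.18 with equal totals, 0.54 without the filter and -0.12 to 0.78 when each library was left out, with Exosc7 at -0.95 to 0.46 and Exosc8 at -1.26 to 0.77.

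For the interaction of genotype and rapamycin, Exosc3 was -0.50 with equal totals and -0.16 with a pseudocount of 10, Exosc8 was 0.04 with a pseudocount of 10, and 1 member (Exosc10) passed without the filter. Leaving out each library gave 0 to 2 members past the thresholds (Exosc5 and Exosc9, both without rapamycin-treated control 3), Exosc3 -0.73 to 1.01, Exosc5 2.06 to 4.02, Exosc8 -1.07 to 1.01 and Exosc9 1.78 to 3.22. For the change in TE, 2 members passed with quantile normalization and 1 with a pseudocount of 0.1, Exosc8 was 0.06 with equal totals and Exosc3 was -0.16 with a pseudocount of 10. Leaving out each library gave 0 to 2 members past the thresholds, Exosc1 0.86 to 2.26, Exosc2 -2.89 to -1.16, Exosc3 -0.64 to 0.59, Exosc5 -1.48 to -0.27, Exosc7 -0.19 to 1.33, Exosc8 -0.78 to 0.37, Exosc9 -0.72 to 0.14 and Exosc10 -1.34 to -0.93. The cause of these changes was not tested.

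The labels do not say whether the TRAP replicate number pairs the samples. Deviations of libraries with the same number correlated at -0.0654 to 0.0736 over 18 pairs, none above 0.1. Those with other numbers correlated at -0.0501 to 0.0644 over 36 pairs. Counting error at low TRAP values could hide a pairing, so these coefficients do not settle it. With the replicate block no member passed in any TRAP comparison, and the medians were -0.24 for genotype, -1.18 for rapamycin in controls, -0.30 in mutants, 0.20 under rapamycin and 1.70 for the interaction. At 0 to 54 fragments per TRAP value, differences of several-fold were within the error of most members.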
